A study of Homo sapiens with 14 samples.

Results

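The genes that encode the proteins of the cytoplasmic ribosome were followed across 6 groups of K562 cells. They were picked by name: every row of the deposited expression table whose symbol is RPL or RPS plus a number, with or without a final A, X or L, together with RPLP0, RPLP1, RPLP2 and RPSA. This gave 81 genes, in 82 rows, of 35718 gene symbols in the table. A gene was compared between groups when at least 1 of its 6 group means was above 0 on the log2 scale, which kept 79 of the 81 and 16433 of all genes. The other two, RPL3L and RPL10L, had almost no reads in any group. Of the 79, 78 were above 5 in all 6 groups, and RPL39L was just under that level in 3 of them.

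Ribosomal proteins are built with ribosomal RNA into a small subunit, which reads the messenger RNA, and a large subunit, which joins the amino acids. Because the proteins are needed in nearly equal amounts, their genes are known for being expressed together, at high levels and with little change between conditions. Their messenger RNAs carry a 5′ terminal oligopyrimidine tract, a C at the cap followed by a run of C and T, through which mTOR signalling controls their translation. In the blood-forming system these genes are known above all for Diamond-Blackfan anaemia, a failure of red cell precursors that follows loss of a copy of RPS19 or of several other members.

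K562 is an established leukaemia line of erythroid character, here carrying dCas9-KRAB, a Cas9 without nuclease activity fused to a repressor, which shuts off the promoter that a guide RNA points it to (CRISPR interference). The knockdowns were TASOR knockdown (2 libraries in the labels, each with its own guide), TASOR2 knockdown (3 libraries, each with its own guide), MPP8 knockdown (2 guides) and PPHLN1 knockdown (2 guides, the Periphilin gene). They were set against cells given a guide to AAVS1, a site used as a harmless target (sgAAVS1, 3 libraries), and beside untransduced cells that had dCas9 but no guide (2 libraries). TASOR, MPP8 and Periphilin form HUSH, a complex known for silencing retroelements through histone H3K9 methylation, and HUSH2 has TASOR2 in place of TASOR. Total RNA was taken 7 days after transduction, ribosomal RNA was removed, and strand-specific libraries were made. The sources used here do not say whether the dCas9-KRAB line is a single clone.

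The table holds 1 mean per group and no single library, so no test over libraries, SD or n can be given for any difference, and the spread between guides and between replicates is unknown. Levels are log2 of reads scaled to a common depth, close to log2 CPM. Each difference is given with a 95% counting interval, which covers only the counting of reads. The value steps of rare genes put the depth at 5857937 to 7406968 reads per library, and they show means of 2 libraries for TASOR2, where the labels list 3. The targeted gene was lower in each knockdown: the TASOR gene, listed as FAM208A, was at 3.29 in TASOR knockdown and 7.22 in sgAAVS1. FAM208B, the TASOR2 gene, was at 6.03 in TASOR2 knockdown and 7.45 in sgAAVS1. MPHOSPH8 was at 4.70 in MPP8 knockdown and 6.52 in sgAAVS1, and PPHLN1 at 5.27 in PPHLN1 knockdown and 6.57 in sgAAVS1. Genes in general were not level with sgAAVS1: the median difference of the tested genes was 0.16 in TASOR, 0.07 in TASOR2, 0.12 in MPP8 and 0.17 in PPHLN1 knockdown and 0.05 in untransduced cells. Differences are therefore also given relative to that median. In bulk RNA, fewer cells of a kind and less RNA per cell cannot be told apart.

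The tract that these genes are known for can be read at their annotated starts. RefSeq's promoter sequences (GRCh38.p14) hold 64 of the 81 genes. A C followed by at least 4 C or T, beginning within 2 bases of an annotated start, was found on the gene's strand in 50 of the 64 (78.1%), against 3557 of 27305 genes (13%) in the whole table of starts. A gene with several annotated starts was counted if any of them matched, here and in the other lists. On the opposite strand the shares were 6.25% of the ribosomal protein genes and 10.8% of all genes. Translation factor genes had the tract in 12 of 15, whereas mitochondrial ribosomal protein genes had it in 8 of 69 and ribosome assembly genes in 6 of 33. The windows shown here belong to genes whose values are described below. Where any start of a gene matched, the first matching start is the one shown. They run from 10 bases before the start to 20 bases from it, 5′ to 3′ on the gene's strand, with the tract in capitals.
RPLP0 (chr12:120201092-120201121, minus strand): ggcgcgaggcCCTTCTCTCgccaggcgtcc
RPLP2 (chr11:809957-809986, plus strand): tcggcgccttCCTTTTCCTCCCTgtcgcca
RPSA (chr3:39406710-39406739, plus strand): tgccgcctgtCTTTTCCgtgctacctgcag
RPS19 (chr19:41860245-41860274, plus strand): ccccgtcgttCCCTTTCCCCTggctggcag
RPS9 (chr19:54200848-54200877, plus strand): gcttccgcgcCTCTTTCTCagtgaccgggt
RPS13 (chr11:17077648-17077677, minus strand): ctctcgctctCCTTTCgttgcctgatcgcc
RPL28 (chr19:55385922-55385951, plus strand): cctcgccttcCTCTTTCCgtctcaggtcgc
RPL41 (chr12:56116623-56116652, plus strand): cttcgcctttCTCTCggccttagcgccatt
RPS7 (chr2:3575250-3575279, plus strand): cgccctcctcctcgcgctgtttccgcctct

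Counted from the matched C, the run was longest among these in RPLP2, with 13 bases, and shortest in RPL41, with 5. Bases before that C were not counted, although in RPL41 and some others they are also C and T. RPS7 had no match by this rule, although an unbroken run of C and T that begins more than 2 bases before the start crosses it. Both genes of 2 paralog pairs were in the table of starts, and the pairs are shown because the paralog lacked a match that the main gene had.
RPL10 (chrX:154398367-154398396, plus strand): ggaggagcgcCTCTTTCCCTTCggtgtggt
RPL10L (chr14:46651762-46651791, minus strand): gtagttaagagagcgcattttgacttcgag
RPS27 (chr1:153990752-153990781, plus strand): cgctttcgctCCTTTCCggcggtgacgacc
RPS27L (chr15:63157458-63157487, minus strand): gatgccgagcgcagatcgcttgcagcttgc

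Per length, the ribosomal protein genes stood well above other expressed genes. Each level was divided by the length of the annotated principal transcript (GENCODE v29), and the median of the 78 genes per kilobase came to 7.004 in TASOR, 7.03 in TASOR2, 7.11 in MPP8 and 7.11 in PPHLN1 knockdown, against 6.94 in sgAAVS1 and 6.90 in untransduced cells. The same median over the 8747 genes above 5 in all groups that have a length was 5.20 in TASOR, 5.16 in TASOR2, 5.17 in MPP8 and 5.22 in PPHLN1 knockdown, against 5.05 in sgAAVS1 and 5.08 in untransduced cells. The transcripts are short, with a median of 858 bases against 3147 over those genes. Before that division the median level of the 78 genes was 6.74 in TASOR, 6.74 in TASOR2, 6.81 in MPP8 and 6.83 in PPHLN1 knockdown, against 6.67 in sgAAVS1 and 6.62 in untransduced cells. Over all tested genes averaging above 5 it was 6.67 in TASOR, 6.63 in TASOR2, 6.64 in MPP8 and 6.69 in PPHLN1 knockdown. In sgAAVS1 it was 6.52 and in untransduced cells 6.55. Undivided, the members were thus close to other expressed genes. Between 43 of the 78 (TASOR knockdown) and 48 (MPP8 knockdown and sgAAVS1) lay above that median.

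The share of the 79 tested members was taken from the summed levels of all 16433 tested genes, not divided by length. It was 0.721% in TASOR, 0.742% in TASOR2, 0.779% in MPP8 and 0.760% in PPHLN1 knockdown. The shares were 0.760% in sgAAVS1 and 0.732% in untransduced cells, each with a counting half-width of at most 0.00445 percentage points. By this measure TASOR knockdown had the lowest share and MPP8 knockdown the highest, and the sgAAVS1 share equalled that of PPHLN1 knockdown.

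The members themselves differed from each other far more than from group to group. Per kilobase, RPL15, a large subunit gene, was highest with an average log2 level over the 6 groups of 7.87, then RPS2, of the small subunit, at 7.76 and RPL10A, of the large subunit, at 7.73. Apart from RPL3L and RPL10L, the lowest per kilobase was RPS27L at 2.61. The annotated transcript of RPS27L is 6434 bases long, and not divided by length it averaged 5.29, the lowest of the 78. Not divided by length, RPL37 had the highest level, an average of 8.03, followed by RPL15 at 7.95 and RPL4 at 7.89. The annotated transcript of RPL37 is 7686 bases long, and per kilobase it came to 5.09. Across the 78 genes the undivided level went with transcript length (Spearman rho 0.60 across genes, which are not independent).

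**Figure D1:**
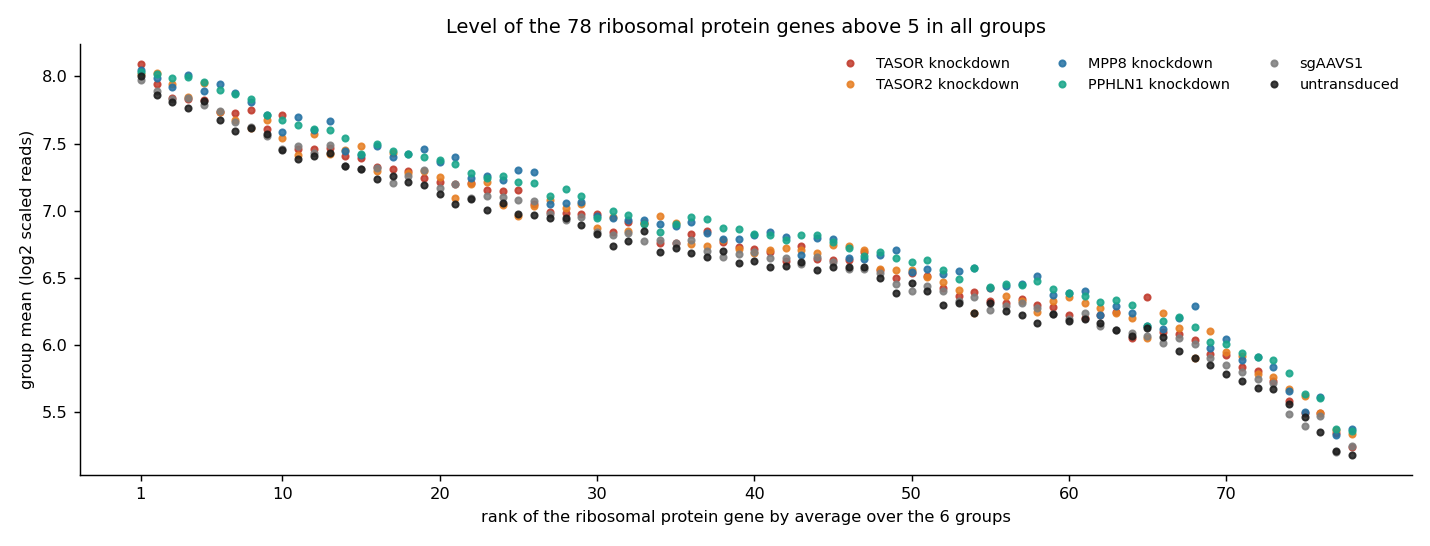
Group mean level (log2 of scaled reads, vertical axis) of the 78 ribosomal protein genes above 5 in all groups, not divided by length, along their rank by average level (horizontal axis, highest at the left). Each gene has 1 point per group; the points of a gene lie within 0.12 to 0.39 of each other, while the genes run from 8.03 to 5.29.

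Each gene kept nearly the same level in all 6 groups. The distance between its highest and lowest group mean was 0.23 in the median, with extremes of 0.12 and 0.39, against a median of 0.30 over the 8944 genes above 5 in all groups. When each group was centred on its own median the figures were 0.15 for the ribosomal protein genes and 0.25 for all 8944. PPHLN1 knockdown held the highest value for 42 of the 78 genes, MPP8 knockdown for 24, TASOR2 knockdown for 8 and TASOR knockdown for 4. Untransduced cells held the lowest value for 53, sgAAVS1 for 20, TASOR2 knockdown for 4 and TASOR knockdown for 1. This order mixes the genes with the general shift of each group noted above.

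The steadiest genes were RPL37, of the large subunit, and RPS15A and RPS24, of the small subunit. RPL37 stood at 8.10 in TASOR, 8.02 in TASOR2, 8.05 in MPP8 and 8.03 in PPHLN1 knockdown, against 7.97 in sgAAVS1 and 8.004 in untransduced cells. RPS15A stood at 6.69 in TASOR, 6.71 in TASOR2, 6.64 in MPP8 and 6.66 in PPHLN1 knockdown, against 6.56 in sgAAVS1 and 6.58 in untransduced cells. Their ranges of 0.12 and 0.14 compare with 0.39 for RPL41, 0.35 for RPS9 and 0.35 for RPLP2, the 3 that varied most.

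RPL41 encodes a very small basic protein of the large subunit. It was at 6.04 in TASOR, 5.91 in TASOR2, 6.29 in MPP8 and 6.13 in PPHLN1 knockdown, against 6.01 in sgAAVS1 and 5.91 in untransduced cells. RPS9, of the small subunit, was at 7.20 in TASOR, 7.10 in TASOR2, 7.40 in MPP8 and 7.35 in PPHLN1 knockdown, against 7.20 in sgAAVS1 and 7.05 in untransduced cells. RPLP2 was at 6.30 in TASOR, 6.25 in TASOR2, 6.52 in MPP8 and 6.48 in PPHLN1 knockdown, against 6.28 in sgAAVS1 and 6.16 in untransduced cells. In all 3 the MPP8 knockdown was highest and PPHLN1 knockdown next, and the lowest value was in untransduced cells.

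Against sgAAVS1, the ribosomal protein genes moved little in every group. None of the 79 differed by 1 log2 unit or by 0.5 in TASOR, TASOR2, MPP8 or PPHLN1 knockdown or in untransduced cells, and none lay 0.25 or more from the median of all tested genes with an interval clear of it. Over genes averaging above 5, at most 0.223% were higher and 0.106% lower by 1 in any group. By 0.5 it was at most 4.49% and 1.48%, and by 0.25 from that median at most 17.3% and 10.8%. At 1, a count of 0 in 79 is near what genes of that level show. The shares of each group are given below. The spread of the 79 differences was also narrow: their SD across genes was 0.06 in TASOR, 0.08 in TASOR2, 0.05 in MPP8 and 0.04 in PPHLN1 knockdown and 0.05 in untransduced cells. Over all tested genes averaging above 5 it was 0.13, 0.25, 0.11, 0.13 and 0.12 in the same order. All 5 comparisons use the same sgAAVS1 libraries, so a departure of those libraries would enter each.

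**Figure D2:**
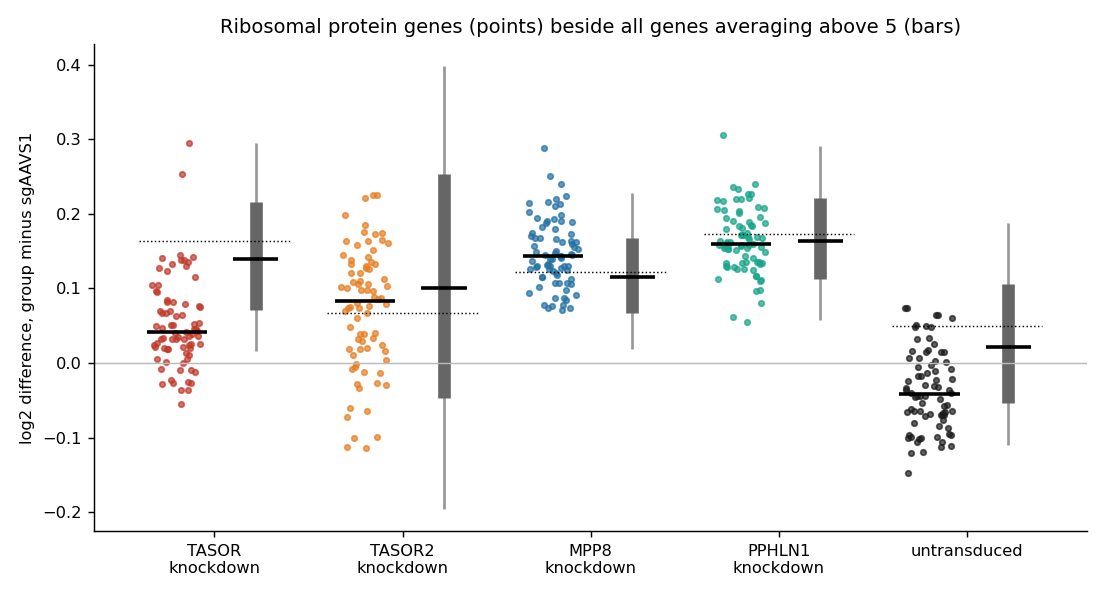
Log2 difference from sgAAVS1 (vertical axis) of each ribosomal protein gene above 5 in all groups (points, line at the median) in 4 knockdowns and untransduced cells, beside all tested genes averaging above 5 (thick bar from the 25th to the 75th percentile, thin bar from the 10th to the 90th, line at the median). Dotted lines mark the median of all tested genes; the points lie mostly under it in TASOR knockdown and untransduced cells and around it in TASOR2, MPP8 and PPHLN1 knockdown.

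In TASOR knockdown the ribosomal protein genes stayed at the level of sgAAVS1 while most other genes were higher. Their median level difference was 0.04, against 0.16 over all tested genes, which is -0.12 relative to them. That relative value was -0.04 with untransduced cells in place of sgAAVS1 and -0.02 against genes averaging above 8, and without the filter on low values it turned to 0.13. Of the 79, 77 lay below the all-gene median and 2 above it, and the counting interval left that median out for 52. None of the 79 differed by 1, where 1.95% of all tested genes were higher and 0.341% lower by that much. None differed by 0.5, where 6.93% were higher and 0.73% lower, and none by 0.25 from the all-gene median, where 6.91% were higher and 2.37% lower. Many of those genes are of low level: over the 9399 genes averaging above 5, where the members lie, 0.0532% were higher and 0.0106% lower by 1, 0.734% and 0.0213% by 0.5, and 2.01% and 0.904% by 0.25 from the all-gene median. At such shares few or none of 79 genes would pass at 1 or 0.5.

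The members lay below other genes in each bin of level from 5 to 8, and above them between 8 and 8.5, where RPL37 is the single member, at 0.12 against 0.08 over 495 genes. Among genes averaging between 6 and 6.5 the median difference of the members was 0.03, against 0.16 over all 1738 genes there. Between 7 and 7.5 it was 0.04 for the members, against 0.12 over 1486 genes. Over all genes averaging above 5 the TASOR difference fell with level (Spearman rho -0.36 over 9170 genes), whereas across the 78 members it did not (rho -0.05). Against the 8099 genes within the members' own range of levels, whose median difference was 0.14, the members stood at 0.04.

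**Figure D3:**
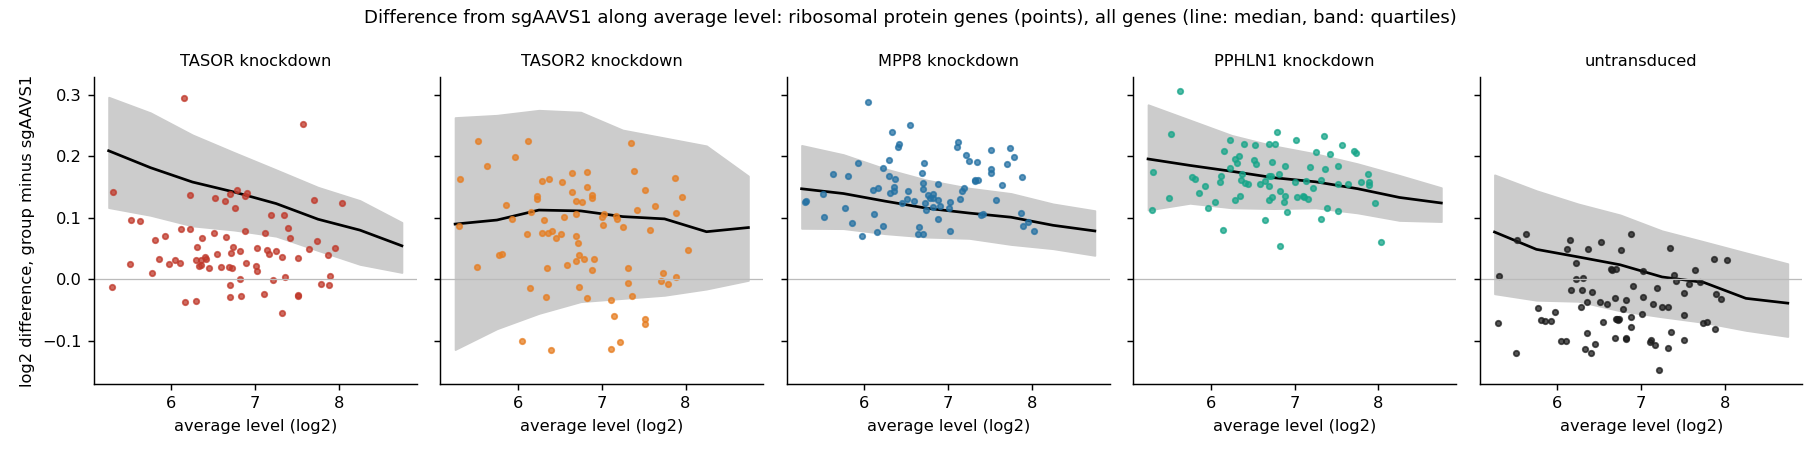
Log2 difference from sgAAVS1 (vertical axis) along the average level over the 6 groups (horizontal axis, log2), for each ribosomal protein gene above 5 in all groups (points) and for all tested genes averaging above 5 (line at the median, band from the 25th to the 75th percentile, in bins of 0.5). In TASOR knockdown the members' median is 0.03 at levels of 6 to 6.5 where that of all genes is 0.16; in MPP8 knockdown it is 0.15 where that of all genes is 0.13.

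The lowest members in TASOR knockdown were RPL5, RPS12 and RPL24. RPL5, which carries the 5S ribosomal RNA into the large subunit, was at 7.25 in TASOR knockdown and 7.30 in sgAAVS1, a difference of -0.06 ± 0.08. RPS12, of the small subunit, was at 6.05 in TASOR knockdown and 6.09 in sgAAVS1, and RPL24, of the large subunit, at 6.20 in TASOR knockdown and 6.24 in sgAAVS1. Each of these intervals includes 0, so the genes are set apart from the general rise of the group and not from sgAAVS1 itself.

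RPS29 and RPL28 were the 2 members above the all-gene median. RPS29, a small zinc-binding protein of the small subunit, was at 6.36 in TASOR, 6.05 in TASOR2, 6.14 in MPP8 and 6.15 in PPHLN1 knockdown, against 6.07 in sgAAVS1 and 6.13 in untransduced cells. TASOR knockdown thus stood apart from the other groups, by 0.31 ± 0.13 from TASOR2, 0.22 ± 0.13 from MPP8, 0.21 ± 0.13 from PPHLN1 knockdown, 0.29 ± 0.12 from sgAAVS1 and 0.23 ± 0.12 from untransduced cells. The table's RPS29 row spans chr14:49570984-49599164 on the minus strand, and RN7SL1, an abundant RNA of the signal recognition particle, lies inside it on the opposite strand. RN7SL1 was at 6.92 in TASOR knockdown and 7.15 in sgAAVS1, a difference of -0.23 ± 0.09. Its part in the RPS29 value was not tested. RPL28, of the large subunit, was at 7.71 in TASOR, 7.54 in TASOR2, 7.59 in MPP8 and 7.68 in PPHLN1 knockdown, against 7.46 in sgAAVS1 and 7.45 in untransduced cells. Its difference of 0.25 ± 0.07 in TASOR knockdown was close to that in PPHLN1 knockdown, 0.22 ± 0.08.

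In TASOR2 knockdown the members were spread on both sides of the general shift. Their median difference from sgAAVS1 was 0.08, against 0.07 over all tested genes and 0.10 over those averaging above 5, with 46 of 79 above the all-gene median. None differed by 1, where 2.26% of all tested genes were higher and 2.03% lower. None differed by 0.5, where 7.28% were higher and 5.98% lower, or by 0.25 from the all-gene median, where 15.7% were higher and 15% lower. Over the genes averaging above 5 the higher and lower shares were 0.149% and 0.106% at 1, 4.49% and 1.48% at 0.5, and 17.3% and 10.8% at 0.25.

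The TASOR2 differences followed the GC content of the transcript, among the members as among all genes. Over 9170 genes averaging above 5 the Spearman rho between the 2 was -0.72, and across the 78 members it was -0.48. The 26 members of lowest GC content (42.1% to 47.6%) had a median difference of 0.11, the 26 in the middle 0.10, and the 26 of highest GC content (52.2% to 63.1%) 0.02. In the same knockdown all genes with 44% to 48% GC had a median of 0.16, and those with 60% to 64% a median of -0.09. The part of GC content in the differences of single members was not tested.

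**Figure D4:**
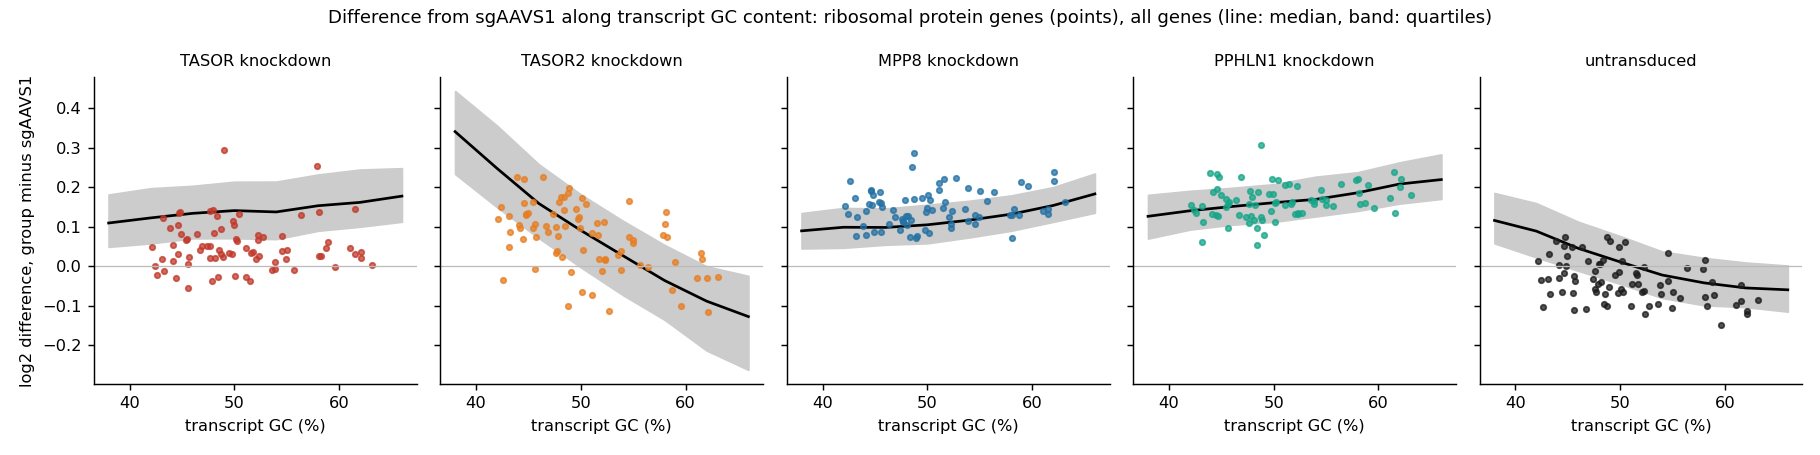
Log2 difference from sgAAVS1 (vertical axis) along the GC content of the annotated transcript (horizontal axis, percent), for each ribosomal protein gene above 5 in all groups (points) and all tested genes averaging above 5 (line at the median, band from the 25th to the 75th percentile, in bins of 4 percentage points). The line falls steeply in TASOR2 knockdown, where all genes go with GC content at rho -0.72 and the members at rho -0.48, and less so in untransduced cells (rho -0.55 and -0.41).

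The highest members in TASOR2 knockdown were RPL39, RPL21 and RPS23. RPL39, which lines the exit tunnel of the large subunit, was at 5.62 in TASOR2 knockdown and 5.40 in sgAAVS1, a difference of 0.23 ± 0.15. RPL21 was at 6.24 in TASOR2 knockdown and 6.01 in sgAAVS1 (0.23 ± 0.13), and RPS23, a protein of the decoding centre, at 7.43 in TASOR2 knockdown and 7.21 in sgAAVS1 (0.22 ± 0.08). Their transcripts have 43.9%, 46.4% and 44.6% GC.

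The lowest were RPL36, RPS14 and RPS9. RPL36 was at 6.24 in TASOR2 knockdown and 6.36 in sgAAVS1, a difference of -0.11 ± 0.12. RPS14, known for its loss in the 5q- syndrome, was at 6.96 in TASOR2 knockdown and 7.08 in sgAAVS1 (-0.11 ± 0.09), and RPS9 at 7.10 in TASOR2 knockdown and 7.20 in sgAAVS1 (-0.10 ± 0.09). Their transcripts have 62.1%, 52.7% and 59.6% GC, so the high members were all poorer in GC than the low ones.

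In MPP8 knockdown, as in PPHLN1 knockdown, the members moved almost as 1 block. All 79 were above sgAAVS1, with a median difference of 0.14 against 0.12 over all tested genes, and 57 of 79 were above the all-gene median. The interval left out 0 for 65 of them but left out the all-gene median for only 8. None differed by 1, where 1.65% of all tested genes were higher and 0.316% lower. None differed by 0.5, where 4.33% were higher and 0.682% lower, or by 0.25 from the all-gene median, where 4.74% were higher and 2.21% lower. Over the genes averaging above 5 only 0.128% were higher and 0.0106% lower by 1, 0.841% and 0.0106% by 0.5, and 1.61% and 0.457% by 0.25. At 1 and 0.5, a count of 0 in 79 is near what genes of that level show.

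RPL41, RPS20 and RPLP2 were the highest members there. RPL41 differed from sgAAVS1 by 0.29 ± 0.12, RPS20, of the small subunit, by 0.25 ± 0.11 and RPLP2 by 0.24 ± 0.11. At the low end, RPS13 was at 5.98 in MPP8 knockdown and 5.91 in sgAAVS1, RPL29 at 6.68 in MPP8 knockdown and 6.60 in sgAAVS1, and RPS15A at 6.64 in MPP8 knockdown and 6.56 in sgAAVS1. Highest and lowest members were thus 0.22 apart, narrower than the spread in TASOR or TASOR2 knockdown, where the extremes were -0.06 and 0.29, and -0.11 and 0.23. In PPHLN1 knockdown the extremes were 0.05 and 0.31, and in untransduced cells -0.15 and 0.07. The SD across genes given above was smaller in PPHLN1 than in MPP8 knockdown, so the narrow spread was not particular to MPP8 knockdown.

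In PPHLN1 knockdown all 79 members were likewise above sgAAVS1, by no more than genes in general. Their median difference was 0.16 against 0.17 over all tested genes, and 29 of 79 were above the all-gene median. The interval left out 0 for 71 members and the all-gene median for 2. None differed by 1, where 2.88% of all tested genes were higher and 0.615% lower. None differed by 0.5, where 7.58% were higher and 1.14% lower, or by 0.25 from the all-gene median, where 7.28% were higher and 3.71% lower. Among genes averaging above 5 the shares were 0.223% higher and 0.0638% lower at 1, 1.45% and 0.117% at 0.5, and 2.4% and 1.28% at 0.25.

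RPS27, a zinc-binding protein of the small subunit, was the highest member, at 5.80 in PPHLN1 knockdown and 5.49 in sgAAVS1 (0.31 ± 0.15). RPL39, of the large subunit, was also near the top, at 0.24 ± 0.15. The lowest were RPS7 at 0.05 ± 0.10, RPL37 at 0.06 ± 0.07 and RPS29 at 0.08 ± 0.13. RPL39 was also among the highest in TASOR2 knockdown and in untransduced cells, and its sgAAVS1 level enters all 3 differences.

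Untransduced cells had slightly less of these messages than sgAAVS1, where genes in general had slightly more. The median difference of the members was -0.04, against 0.05 over all tested genes and 0.02 over those averaging above 5. Of the 79, 72 lay below the all-gene median and 7 above it. None differed by 1, where 1.38% of all tested genes were higher and 0.237% lower. None differed by 0.5, where 4% were higher and 0.688% lower, or by 0.25 from the all-gene median, where 6.79% were higher and 2.34% lower. Among genes averaging above 5 the higher shares were 0.0213% at 1, 0.181% at 0.5 and 2.09% at 0.25, and the lower ones 0%, 0.0106% and 1.21%.

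The lowest members in untransduced cells were RPS9 (-0.15 ± 0.08), RPL36 (-0.12 ± 0.11) and RPS21 (-0.12 ± 0.15), and the highest were RPL37A (0.07 ± 0.09), RPS27 (0.07 ± 0.14) and RPL39 (0.06 ± 0.15). The difference again went with GC content, with rho -0.41 across the 78 members and -0.55 over 9170 genes. The 2 groups of cells without a knockdown therefore differed from each other by about as much, relative to genes in general (-0.09), as TASOR knockdown differed from sgAAVS1 (-0.12). Set against untransduced cells in place of sgAAVS1, the members' median in TASOR knockdown was -0.04 relative to all tested genes.

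Direct differences between knockdowns, which use no control library, placed the members lower in TASOR knockdown than in MPP8 or PPHLN1 knockdown, relative to genes in general, and less clearly than in TASOR2 knockdown. In MPP8 against TASOR knockdown the members' median difference was 0.10, against -0.04 over all tested genes, which is 0.14 relative to them, and 74 of 79 were above the all-gene median. In PPHLN1 against TASOR knockdown the relative median was 0.11, with 73 of 79 above, and no member lay 0.25 from the all-gene median, where 4.29% of all tested genes were higher and 5.37% lower. In TASOR against TASOR2 knockdown it was -0.12, with 68 of 79 below, but -0.05 relative to genes averaging above 5. There the members were not lower than other genes at levels of 7.5 to 8 (-0.01 for the members, -0.02 over 1061 genes) or at 40% to 44% GC (-0.10 for the members, -0.14 over 1613 genes). RPL37, between 8 and 8.5, was at 0.08, against -0.01 over the genes there. These 3 comparisons share the TASOR libraries.

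In MPP8 against TASOR knockdown 5 members lay at least 0.25 above the all-gene median, where 4.83% of all tested genes did, and none lay that far below, where 6.23% did. Among them were RPL41 at 0.26 ± 0.13, RPS6 at 0.24 ± 0.09, RPLP2 at 0.22 ± 0.12 and RPL5 at 0.21 ± 0.09. RPS6, the substrate of S6 kinase in the small subunit, was at 7.29 in MPP8 and 7.05 in TASOR knockdown. Over genes averaging above 5, 2.94% lay that far above, which is 276 of 9399. The 5 of 79 are few, and whether their share differs from either background was not tested.

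In TASOR against TASOR2 knockdown RPS7 and RPS13 lay at least 0.25 below the all-gene median, where 17.1% of all tested genes did, and none lay that far above, where 19.4% did. RPS7, of the small subunit, was at 6.76 in TASOR and 6.96 in TASOR2 knockdown (-0.20 ± 0.10), and RPS13, also of the small subunit, at 5.93 in TASOR and 6.11 in TASOR2 knockdown (-0.17 ± 0.14). In MPP8 against TASOR2 knockdown RPL41, RPS14 and RPL36 lay at least 0.25 above, where 17.9% of all tested genes did, and none below, where 17.8% did. Their differences were 0.39 ± 0.14, 0.34 ± 0.10 and 0.33 ± 0.13. Both counts are well under the share of all genes, which differed widely from TASOR2 knockdown. Relative to all genes the members' median was -0.01 in MPP8 against TASOR2, -0.02 in PPHLN1 against TASOR2 and -0.04 in PPHLN1 against MPP8 knockdown. Relative to genes averaging above 5 the sign of the first of these turned, to 0.04, as did that of PPHLN1 against TASOR2, to 0.03. No member passed in PPHLN1 against TASOR2 knockdown, where 17.9% of all tested genes were higher and 17.4% lower, or in PPHLN1 against MPP8 knockdown, where 3.68% were higher and 3.12% lower.

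Set against untransduced cells, MPP8 knockdown was the one knockdown with members at least 0.25 above the all-gene median: RPL36, RPL41, RPLP2 and RPS9, where 7.12% of all tested genes and 5.5% of those averaging above 5 were. These 4 of 79 are no more than genes in general show. In TASOR, TASOR2 and PPHLN1 knockdown 5.59%, 9.44% and 4.89% of all tested genes were that far above untransduced cells, and no member. None lay that far below in any knockdown, where 5.63% of all tested genes did in TASOR, 16.6% in TASOR2, 8.54% in MPP8 and 6.61% in PPHLN1 knockdown. RPS9 was at 7.40 in MPP8 knockdown and 7.05 in untransduced cells, a difference of 0.35 ± 0.09. RPL41 was at 6.29 in MPP8 knockdown and 5.91 in untransduced cells (0.39 ± 0.13). None of the 4 passed against sgAAVS1.

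The stalk of the large subunit, which recruits the elongation factors, is made of RPLP0, its anchor, and RPLP1 and RPLP2. Averaged over the 6 groups they stood at 7.54, 6.47 and 6.83 per kilobase. RPLP0 was at 7.83 in TASOR, 7.95 in TASOR2, 7.89 in MPP8 and 7.96 in PPHLN1 knockdown, against 7.79 in sgAAVS1 and 7.82 in untransduced cells. RPLP1 was at 6.73 in TASOR, 6.72 in TASOR2, 6.79 in MPP8 and 6.87 in PPHLN1 knockdown, against 6.68 in sgAAVS1 and 6.61 in untransduced cells. RPLP0 was highest in PPHLN1 and TASOR2 knockdown, while RPLP2 was highest in MPP8 knockdown, so the 3 stalk genes did not share an order of groups. RPSA, the small subunit protein also called the laminin receptor, was at 7.46 in TASOR, 7.57 in TASOR2, 7.60 in MPP8 and 7.61 in PPHLN1 knockdown, against 7.43 in sgAAVS1 and 7.41 in untransduced cells.

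Of the Diamond-Blackfan genes, RPS19 is the one most often mutated. It was at 7.15 in TASOR, 7.04 in TASOR2, 7.23 in MPP8 and 7.26 in PPHLN1 knockdown, against 7.10 in sgAAVS1 and 7.06 in untransduced cells. RPL11, which binds the 5S ribosomal RNA with RPL5, was at 6.56 in TASOR, 6.56 in TASOR2, 6.67 in MPP8 and 6.70 in PPHLN1 knockdown, against 6.54 in sgAAVS1 and 6.50 in untransduced cells. The 18 members on a list of Diamond-Blackfan genes had a median difference from sgAAVS1 of 0.05 in TASOR, 0.09 in TASOR2, 0.13 in MPP8 and 0.16 in PPHLN1 knockdown. The 60 others had 0.04 in TASOR, 0.08 in TASOR2, 0.15 in MPP8 and 0.16 in PPHLN1 knockdown.

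The 46 genes of the large and the 32 of the small subunit were as close to each other. The large subunit had a median difference from sgAAVS1 of 0.05 in TASOR, 0.09 in TASOR2, 0.15 in MPP8 and 0.16 in PPHLN1 knockdown, and the small subunit 0.03 in TASOR, 0.08 in TASOR2, 0.14 in MPP8 and 0.16 in PPHLN1 knockdown. The 28 genes whose span holds an annotated snoRNA, a guide RNA for ribosomal RNA modification, had a median level per kilobase of 7.03 in sgAAVS1, and the 50 without one 6.92. In the 28 the median difference from sgAAVS1 was 0.04 in TASOR, 0.07 in TASOR2, 0.15 in MPP8 and 0.17 in PPHLN1 knockdown, against 0.04 in TASOR, 0.09 in TASOR2, 0.14 in MPP8 and 0.16 in PPHLN1 knockdown without a snoRNA.

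Of the 4 paralogs known for restricted or stress-related expression, 2 were expressed in these cells and 2 were barely read. RPL39L, the testis-enriched copy of RPL39, was at 5.12 in TASOR, 4.98 in TASOR2, 5.22 in MPP8 and 5.21 in PPHLN1 knockdown, against 4.98 in sgAAVS1 and 4.93 in untransduced cells. Its differences from sgAAVS1 were 0.24 ± 0.18 in MPP8 and 0.23 ± 0.18 in PPHLN1 knockdown, 0.14 ± 0.17 in TASOR knockdown and -0.01 ± 0.19 in TASOR2 knockdown. Per kilobase RPL39L was at 5.54 in TASOR knockdown and 5.40 in sgAAVS1, under RPL39 at 6.81 in TASOR knockdown and 6.72 in sgAAVS1. RPS27L, known as a p53 target, was at 5.24 in TASOR, 5.34 in TASOR2, 5.38 in MPP8 and 5.36 in PPHLN1 knockdown, against 5.25 in sgAAVS1 and 5.18 in untransduced cells. Per kilobase its level was 2.55 in TASOR knockdown and 2.57 in sgAAVS1, far under RPS27 at 7.06 in TASOR knockdown and 6.97 in sgAAVS1, as its annotated transcript has 6434 bases and that of RPS27 has 359.

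RPL3L, the muscle copy of RPL3, was at -0.50 in TASOR, -0.76 in TASOR2, -2.64 in MPP8 and -1.08 in PPHLN1 knockdown, against -1.77 in sgAAVS1 and -0.39 in untransduced cells. These levels stand for about 9.8 reads over the libraries in TASOR, 6.93 in TASOR2, 1.9 in MPP8 and 5.66 in PPHLN1 knockdown, against 5.45 in sgAAVS1 and 11.3 in untransduced cells. With so few reads RPL3L was not compared between groups. RPL10L, the testis copy of RPL10 that arose by retrotransposition, was at or next to the level of 0 reads in every group. Over a group a count of 0 allows up to 3 reads, a log2 level of -2.21 in TASOR, -1.97 in TASOR2, -1.98 in MPP8 and -1.99 in PPHLN1 knockdown, against -2.63 in sgAAVS1 and -2.30 in untransduced cells. RPL10 itself was at 7.40 in TASOR, 7.45 in TASOR2, 7.44 in MPP8 and 7.54 in PPHLN1 knockdown, against 7.34 in sgAAVS1 and 7.34 in untransduced cells.

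**Figure D5:**
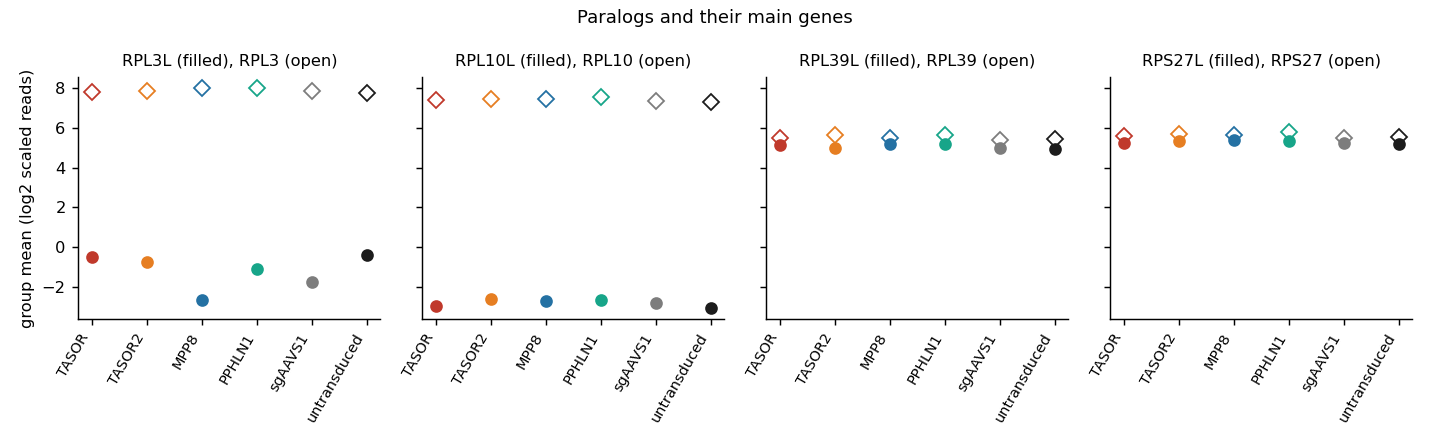
Group mean level (log2 of scaled reads, vertical axis) of 4 paralogs (filled circles) and their main genes (open diamonds) in the 6 groups. RPL3L and RPL10L lie under 0 in every group, while RPL39L and RPS27L lie between 4.93 and 5.38. Levels are not divided by length.

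Genes around the ribosome were set beside these values. The 22 translation factor genes, most of which carry the same tract, had a median difference in TASOR knockdown of 0.00, which is -0.16 relative to all tested genes, and 0 of 22 were above the all-gene median. The 77 mitochondrial ribosomal protein genes stood at -0.04 relative to all genes, with 27 above, the 40 ribosome assembly genes at -0.06, with 13 above, and the 14 noncoding snoRNA host genes at -0.08, with 3 above. The TASOR difference fell with level, and over all genes averaging above 8 its median was 0.07. These lists were not matched by level, and the part of level or of the tract in their values was not tested. In TASOR knockdown 1 gene of these lists lay at least 0.25 above the all-gene median, UTP20, a factor of small subunit assembly, at 6.57 in TASOR knockdown and 6.14 in sgAAVS1 (0.43 ± 0.11). Of all tested genes 6.91% lay that far above, and of those averaging above 5, 2.01%. A single gene of these lists is no more than such shares give.

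In TASOR2 knockdown 8 of 77 mitochondrial ribosomal protein genes lay at least 0.25 above the all-gene median and 1 below, and 5 of 40 assembly genes above. These shares are under those of all tested genes, 15.7% and 15%. EIF4E, the cap-binding protein, was at 6.84 in TASOR2 knockdown and 6.25 in sgAAVS1 (0.59 ± 0.11), while EEF1A2, an elongation factor, was at 6.31 in TASOR2 knockdown and 6.57 in sgAAVS1 (-0.26 ± 0.11). Of genes averaging above 5, 17.3% lay at least 0.25 above the all-gene median in that knockdown and 10.8% that far below, so genes past that limit are common there. MRPL20, of the mitochondrial large subunit, was the gene of that list that passed in MPP8 and in PPHLN1 knockdown, at 5.85 in MPP8 knockdown, 5.85 in PPHLN1 knockdown and 5.40 in sgAAVS1 (0.45 ± 0.15 in each). Of all tested genes 4.74% lay at least 0.25 above the all-gene median in MPP8 and 7.28% in PPHLN1 knockdown. Of those averaging above 5, 1.61% and 2.4% did. A single gene of that list is no more than such shares give.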

How the data were processed

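Total RNA was sequenced from K562 cells in 14 libraries, 2 or 3 per group. The submitters' processing notes name cutadapt, Bowtie2 and build hg38. Versions, read counter, annotation release and strand setting in counting are not given there. The authors deposited 1 table of 35805 rows. Its untransduced column holds mean log2 values, per the file headers. The other 5 deposited columns are ratios, as their values show: a group's mean over that of untransduced cells, both in log2. Multiplying them back gave log2 means. No column was left unused.

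Low values in each column fitted averages over whole read numbers, a count of 0 standing as 0.9 (100% of them within 0.001 on the log2 scale), and gave the depths: 6945067 reads per library in TASOR, 5857937 in TASOR2, 5925920 in MPP8, 5963710 in PPHLN1, 6202795 in sgAAVS1 and 7406968 in untransduced cells. The steps fitted means of 3 libraries for sgAAVS1 and 2 for each other group; which 2 TASOR2 guides entered is unknown. Where a symbol had several rows, the one with the highest average was kept and 87 rows were dropped.

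limma was planned only if single libraries were present. On group means, size rules were used as planned: a log2 difference of at least 1, or 0.5, or, added after the data were seen, 0.25 from the median of all tested genes, with the higher mean above 0 and a 95% Poisson counting interval clear of 0 (or of that median). The interval was tried on simulated Poisson counts without spread between libraries, which cannot show whether it holds for guides or replicates. Reads that could come from processed pseudogene copies (a median of 9.5 annotated copies over the 78 members above 5) or overlapping rows may be split or counted more than 1 time. Transcript length and GC content came from GENCODE v29 principal transcripts, for 84.1% of tested genes and all 81 members, and trends were removed by lowess. The members, gene lists and size rules were chosen with earlier results of these data known. Genes were named by a set rule: 4 paralogs, stalk genes, RPSA, RPS19, RPL5 and RPL11, the 3 highest and 3 lowest members per comparison with sgAAVS1, by level, by level per length and by range, and up to 3 genes of each other list; RPS6, RN7SL1 and the overlapping rows with their members were named after their values were seen. Some genes that the rule names are not reported here. Alternatives covered scaling, filters, GC content, length and control group. Python 3.11.15, numpy 2.4.6, pandas 2.3.3, scipy 1.17.1, statsmodels 0.14.6 and matplotlib 3.10.9 were used.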

Additional observations from a re-analysis of the deposited data

How the results depend on the processing

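No paired analysis was possible because the table holds group means only; leaving out single libraries was not run for the same reason. Members' medians relative to all tested genes, which were -0.12 in TASOR, 0.01 in TASOR2, 0.02 in MPP8 and -0.01 in PPHLN1 knockdown and -0.09 in untransduced cells, moved as follows. Quantile normalization gave -0.0996 in TASOR, -0.0315 in TASOR2 and -0.0684 in untransduced cells. With all genes limited to an average above 8 it was -0.0249 in TASOR, 0.0625 in MPP8, 0.0314 in PPHLN1 and -0.00791 in untransduced cells, and with a limit of 5, added after the data were seen, -0.0975 in TASOR, -0.0202 in TASOR2 and -0.0661 in untransduced cells. With no filter it was 0.128 in TASOR, 0.0779 in MPP8, 0.104 in PPHLN1 and 0.136 in untransduced cells. By construction, genes without reads then enter with a difference set by depth alone. Removing the length trend gave -0.102 in TASOR, 0.0406 in TASOR2, -0.00996 in MPP8 and -0.0554 in untransduced cells, and removing the GC trend -0.0704 in untransduced cells. Against untransduced cells it was -0.0384 in TASOR, 0.0712 in TASOR2, 0.102 in MPP8 and 0.0731 in PPHLN1 knockdown. The TASOR median thus stayed below all genes except without a filter, and the TASOR2, MPP8 and PPHLN1 medians lay on both sides of 0.

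Counts of members at least 0.25 from all genes were 0 against sgAAVS1 and became 2 higher without a filter in TASOR and in untransduced cells, 1 lower with the GC trend removed in TASOR2, and 4 higher against untransduced cells in MPP8 knockdown. Without a filter 18.8% of all genes were that far higher in TASOR knockdown and 16.3% in untransduced cells. With the GC trend removed 11.7% were that far lower in TASOR2 knockdown. Against untransduced cells 7.12% were that far higher in MPP8 knockdown. None of the member counts is more than such shares give. Where a setting changed a value the cause was not tested. Of 1715 values of named genes, 190 moved by more than their counting interval, 94 of them without a filter and 47 against untransduced cells. No member passed a size rule against sgAAVS1, so a change of sign among called values could not occur. Counting error alone has a median half-width of 0.10 per member in TASOR knockdown (log2), and smaller differences of single members could not be seen at this depth.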

Other observations

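RPL41 had a second row, at chr7:137513832-137514238, which was not used. It was at 0.46 in TASOR, 0.88 in TASOR2, 0.75 in MPP8 and 0.88 in PPHLN1 knockdown, against 0.0027 in sgAAVS1 and 0.69 in untransduced cells, far under the chromosome 12 row.

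The spans of 13 members overlapped another row on the same strand, and 7 of them a row averaging above 5. RPS10-NUDT3, a readthrough row over RPS10, was at 6.62 in TASOR, 6.68 in TASOR2, 6.78 in MPP8 and 6.76 in PPHLN1 knockdown, against 6.67 in sgAAVS1 and 6.51 in untransduced cells. RPS10 itself was at 6.42 in TASOR, 6.47 in TASOR2, 6.53 in MPP8 and 6.56 in PPHLN1 knockdown, against 6.40 in sgAAVS1 and 6.30 in untransduced cells. RPL36A-HNRNPH2, over RPL36A, was at 5.85 in TASOR knockdown and 5.82 in sgAAVS1, and RPL36A at 5.93 in TASOR knockdown and 5.85 in sgAAVS1. How far such pairs share reads was not tested.

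On the opposite strand 34 members overlapped another row, 15 of them a row averaging above 5. CAND2 covers the whole RPL32 row and was at 6.72 in TASOR and 6.34 in TASOR2 knockdown, against 6.55 in sgAAVS1, while RPL32 was at 7.20 in TASOR and 7.20 in TASOR2 knockdown, against 7.10 in sgAAVS1. RN7SL2, a near-identical copy of RN7SL1 outside the RPS29 row, was at 6.87 in TASOR knockdown and 7.14 in sgAAVS1, a difference of -0.27 ± 0.09.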
